A study of Mus musculus with 27 samples.

Results

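RNA of hepatic stellate cells (HSCs) taken 14 d after the end of a chronic carbon tetrachloride (CCl4) course was compared with that of HSCs taken 24 h after its last injection, in 8 of the 27 libraries of the series, 4 for each time point, over all genes. Both groups were male Balb/c mice that were 8 to 10 weeks old at the first injection and received CCl4, a toxin that kills hepatocytes, by 8 intraperitoneal injections of 0.5 µL per g body weight in mineral oil over 4 weeks. The groups therefore shared the toxin, the oil and the course, and they differed in the time left for recovery and, with it, in age at collection. Libraries of chronic 72 h (n = 4, same course) and of healthy mice (n = 4, not injected, 10 to 12 weeks old) were used only to place the change in time. Cells were sorted by the ultraviolet fluorescence of their stored retinoid and were not cultured. A cell that has lost its retinoid could escape such a sort. Per the methods each library was a separate experiment, and the p-values measure the spread between these libraries.

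HSCs are the pericyte-like cells of the liver that store vitamin A in lipid droplets when quiescent. After injury they turn into contractile myofibroblasts that express smooth muscle actin, lay down fibrillar collagen and secrete the inhibitors and proteases that remodel scar. When the injury stops, scar is partly resorbed, and myofibroblasts die or return to a state that resembles quiescence.

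Chronic 14 d libraries held 6314801 to 7437315 counts in total. Of the chronic 24 h libraries, replicates 1 and 2 (6947304 and 7580709 counts) were of the same lower depth class and replicates 3 and 4 (12234912 and 13045948 counts) of a higher one. Within groups the log2 CPM of libraries correlated at r = 0.911 to 0.95 across genes, which are not independent replicates. Stellate cell identity genes summed to 18478, 19087, 18241 and 16275 CPM (counts relative to the TMM-scaled library size) in chronic 24 h and to 32649.7, 26427, 24873 and 30867 CPM in chronic 14 d, so the libraries carried the labelled cell type at both times. Hepatocyte, endothelial and B cell genes were higher in chronic 14 d, and macrophage genes were higher in the lower-depth chronic 24 h libraries. Their values stand beside the results that they accompany. In bulk RNA, fewer cells of a type and less RNA per cell cannot be told apart.

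RNA of HSCs differed between the time points in both directions. Most contractile genes and many genes of the matrix, of the enzymes that modify collagen and of the secretory pathway were lower at 14 d, and most genes of quiescent HSCs were higher. Of 18758 genes tested, 1248 (6.65%) were called higher and 1147 (6.11%) lower in chronic 14 d, at a Benjamini-Hochberg adjusted p below 0.05 in edgeR's quasi-likelihood test and a change above 2-fold. The median log2 fold change was 1.90 over the genes called higher, -1.43 over those called lower and 0.01 over all genes tested. Without regard to the test, all 4 chronic 14 d libraries lay above all chronic 24 h libraries for 2100 genes (11.2%) and below them for 2518 (13.4%). Scaling by library size alone moved the median of all genes from 0.01 to 0.177 and the calls to 1641 higher and 800 lower, of which 67.2% were higher, against 52.1% with the scaling used here.

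**Figure D1:**
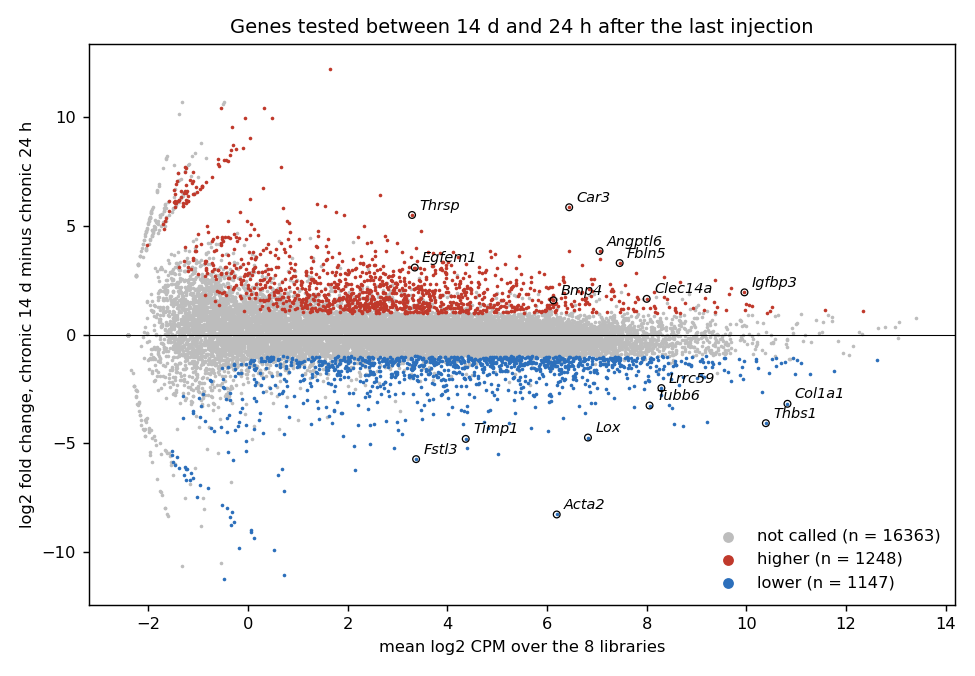
Log2 fold change (chronic 14 d minus chronic 24 h) of the 18758 genes tested against their mean log2 CPM over the 8 libraries, with 1248 genes called higher in red, 1147 called lower in blue and the others in grey. Acta2 lies far below the other labelled genes at a log2 fold change of -8.27, and Car3 and Thrsp lie highest among them. Genes at the far left with fold changes beyond those of the labelled ones had few counts, and their fitted values depend on the prior count.

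The differences of smallest p included genes of moderate fold. Lrrc59, an endoplasmic reticulum membrane protein of the ribosome-binding machinery, had 593, 813, 763 and 788 CPM in the 4 chronic 24 h libraries and 150.0, 129, 136 and 124 CPM in the chronic 14 d libraries (log2 fold change -2.46 ± 0.13, adjusted p = 1.7e-11; SE after each ±). Tubb6, a beta-tubulin, had 580.4, 868, 877 and 1034 CPM against 112, 90.5, 83.5 and 65.4 CPM (log2 fold change -3.26 ± 0.21, adjusted p = 5.4e-10). Neither gene came near overlap between the groups. Fblim1, which links filamin to integrin adhesions, fell too (log2 fold change -2.37 ± 0.16, adjusted p = 9e-10). Creb3l1, a membrane-bound transcription factor that promotes collagen secretion, went from 317, 279.9, 273 and 307 CPM to 58.3, 49.3, 48.6 and 31.7 CPM (log2 fold change -2.65 ± 0.20, adjusted p = 5.4e-09). A pair of secreted modulators completed the 6 falls of smallest p, namely Bmper, which binds bone morphogenetic proteins (log2 fold change -3.61 ± 0.24, adjusted p = 9e-10), and Frzb, a Wnt antagonist (log2 fold change -2.01 ± 0.15, adjusted p = 4.2e-09). Bmper had 89.2, 122, 171 and 199 CPM at 24 h and had 9.72, 11.3, 13.8 and 12.6 CPM at 14 d, close to its 9.07, 6.44, 10.03 and 9.19 CPM in healthy libraries.

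Among the rises of smallest p, Clec14a, a C-type lectin best known from endothelium, had 162, 137, 139 and 143 CPM at 24 h and 478, 387, 435 and 517 CPM at 14 d (log2 fold change 1.64 ± 0.12, adjusted p = 4.2e-09). Within each group its 4 libraries differed little from each other. Ldb2, a cofactor of LIM homeodomain proteins such as Lhx2, had 11.8, 9.61, 11.6 and 10.5 CPM and 41.1, 40.8, 39.3 and 59.2 CPM (log2 fold change 2.05 ± 0.20, adjusted p = 2e-07). Nr1h5, a nuclear receptor of the FXR family, had 46.5, 33.8, 40.2 and 18.2 CPM and 199, 159, 204 and 224 CPM (log2 fold change 2.51 ± 0.24, adjusted p = 2.2e-07). Its healthy level of 225, 213, 229 and 201 CPM overlapped the level at 14 d. Sucnr1, the succinate receptor, rose as well (log2 fold change 1.92 ± 0.18, adjusted p = 1.2e-07), and Egfem1 and Angptl6 are described with the quiescence genes.

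Most listed genes of the contractile apparatus were lower after recovery. This list, like the others, was chosen with earlier results of these data known, so its count is not an independent test. Every list count below is to be read against the 6.11% of all genes tested called lower and the 6.65% called higher. Of 25 smooth muscle contractile and actin cytoskeleton genes tested, 18 were called lower and 0 higher in chronic 14 d, against 6.11% of all genes tested that were called lower, with a median log2 fold change of -1.95. Acta2 (chr19:34241090-34255590, GRCm38), the smooth muscle actin that marks myofibroblasts, had 289, 1055, 2272 and 2563 CPM in the chronic 24 h libraries. It had 4.46, 6.32, 7.22 and 1.91 CPM in the chronic 14 d libraries (log2 fold change -8.27 ± 0.94, adjusted p = 1.9e-06), and the healthy libraries held 1.09, 1.37, 3.12 and 6.93 CPM. The chronic 24 h libraries differed among themselves by more than the recovered and the healthy libraries differed from each other. Within the lower depth class, where Acta2 was lowest of the chronic 24 h libraries, its log2 fold change was -7.01, adjusted p = 0.0016.

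Tagln (transgelin, an actin-binding protein of smooth muscle) had 489, 1521, 1806 and 3011 CPM and 90.9, 137, 82.5 and 90.1 CPM (log2 fold change -4.09 ± 0.52, adjusted p = 6.1e-06), and the groups did not overlap. Cnn1 (calponin) was scarce at 24 h with 1.2, 6.59, 3.51 and 10.6 CPM and had 0.405, 0, 0.481 and 0 CPM at 14 d (log2 fold change -4.52 ± 1.03, adjusted p = 0.0025). Actg2, the enteric smooth muscle actin, had no count in any chronic 14 d library and was at least 11.6-fold lower, against a floor of 3 counts per library. The tropomyosins Tpm2 (log2 fold change -3.57 ± 0.49, adjusted p = 1.7e-05) and Tpm4 (log2 fold change -2.12 ± 0.24, adjusted p = 1.5e-06) fell with the actins. Tpm4 had 804, 1569, 2381 and 2436 CPM at 24 h and 431, 403, 400.3 and 417 CPM at 14 d, below its 522, 498, 500.5 and 789.7 CPM in healthy cells. The actin crosslinker Actn1 was lower in each recovered library (log2 fold change -2.72 ± 0.26, adjusted p = 1.9e-07). Desmin (Des), the intermediate filament used to identify HSCs, had 640.1, 643, 706 and 856 CPM and 458, 323, 349.9 and 340.2 CPM, a log2 fold change of -0.95 that stayed under the 2-fold minimum. Synpo2, an actin-bundling protein, had 14.2, 10.6, 18.3 and 15.8 CPM and 16.6, 14.7, 27.4 and 32.6 CPM and was not called (log2 fold change 0.63 ± 0.26, adjusted p = 0.082).

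The size of the contractile difference depended on which chronic 24 h libraries were used. The list summed to 7223, 11180.4, 17568 and 19472 CPM in chronic 24 h replicates 1 to 4 and to 4247, 3694, 3861 and 4057 CPM in chronic 14 d. Among lower-depth libraries only, 9 of the members were called lower. Macrophage genes moved the other way within the group, at 4092, 5378, 956 and 1805 CPM in the same 4 libraries, and their part in the contractile values was not tested. Depth class and whatever else set these pairs of libraries apart cannot be told apart.

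The promoters of the contractile genes were searched on both strands for the CArG box, the element bound by serum response factor, in its strict form. That form is CC and GG with only A or T between them. The sequences come from RefSeq (GRCm38.p6) and run from 250 bases before to 50 after the gene start, for 22 of the 25 listed genes, with Actg2, Myh11 and Tagln not matched. The strict form was found in 3 of the 22 (13.6%) and in 488 of the 27025 genes of the whole promoter table (1.81%). All 3 holders, Vcl, Myl9 and Cnn2, were called lower at 14 d, and they are printed to show where the element lies, with its letters in capitals. The windows of Acta2 and Cnn1 held no match to the strict form, which does not show that they lack a CArG box. That of Acta2 holds ccctatatgg and ccttgtttgg, which each depart from the strict form by a single letter. Vcl (chr14:20929148-20929447, + strand) holds it from position -227 relative to the start, Myl9 (chr2:156775214-156775513, + strand) from -161 and Cnn2 (chr10:79988350-79988649, + strand) from -56.
Vcl: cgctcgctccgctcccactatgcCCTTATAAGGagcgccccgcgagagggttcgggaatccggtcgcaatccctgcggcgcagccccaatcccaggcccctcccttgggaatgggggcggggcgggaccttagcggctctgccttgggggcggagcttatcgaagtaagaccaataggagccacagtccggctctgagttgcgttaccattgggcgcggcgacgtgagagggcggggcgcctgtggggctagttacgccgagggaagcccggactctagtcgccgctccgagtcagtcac
Myl9: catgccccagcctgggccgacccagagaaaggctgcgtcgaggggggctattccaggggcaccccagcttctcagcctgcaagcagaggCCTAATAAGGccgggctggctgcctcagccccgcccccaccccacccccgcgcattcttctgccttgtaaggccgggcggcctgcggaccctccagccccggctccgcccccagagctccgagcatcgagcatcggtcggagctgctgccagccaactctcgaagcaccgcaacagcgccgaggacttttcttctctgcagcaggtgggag
Cnn2: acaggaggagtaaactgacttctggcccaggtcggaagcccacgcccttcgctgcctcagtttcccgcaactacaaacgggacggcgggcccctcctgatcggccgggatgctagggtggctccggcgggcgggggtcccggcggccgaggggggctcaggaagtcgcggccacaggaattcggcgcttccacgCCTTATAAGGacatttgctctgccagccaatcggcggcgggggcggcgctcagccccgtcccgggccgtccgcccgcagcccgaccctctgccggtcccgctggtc

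Vinculin (Vcl), which ties actin to adhesions, had 98.8, 146, 290.5 and 284 CPM at 24 h and 28, 28.7, 70.5 and 87.7 CPM at 14 d (log2 fold change -1.93 ± 0.46, adjusted p = 0.0039). Cnn2 fell in every recovered library (log2 fold change -2.19 ± 0.28, adjusted p = 7.8e-06). Myl9, the regulatory myosin light chain, had 56.5, 479, 307 and 308 CPM and 42.9, 100.4, 73.8 and 22.2 CPM (log2 fold change -2.26 ± 0.52, adjusted p = 0.0028). Its chronic 24 h replicate 1 lay within the range of the recovered libraries, so the groups overlapped. In the lower depth class Vcl and Myl9 were not called, with log2 fold changes of -1.12 (adjusted p = 0.17) and -2.11 (adjusted p = 0.14).

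Some genes of the adhesions and of the microtubules were lower with the actin genes. Of 25 integrin and focal adhesion genes, 4 were called lower and 0 higher (median -0.71), against 6.11% and 6.65% of all genes tested. The other 21 were not called. When chronic 24 h replicate 1 was left out 7 were lower, and among lower-depth libraries only 2 were. Itga5, the alpha chain of the fibronectin receptor, had 301, 414, 350.1 and 419.7 CPM at 24 h, 63.7, 61.3, 54.1 and 52.3 CPM at 72 h and 49, 43, 40.4 and 37.6 CPM at 14 d (log2 fold change -3.13 ± 0.30, adjusted p = 2.2e-07 between 24 h and 14 d). Its levels at 72 h and 14 d lay near the healthy level of 46.4, 46.1, 49.9 and 41 CPM. Of 11 tubulins, 5 were called lower and 0 higher (median -1.93). Tubb2a, whose reads can be shared with its near copy Tubb2b, had 178, 210.4, 206 and 233 CPM and 62, 67.2, 51 and 37.5 CPM (log2 fold change -1.93 ± 0.18, adjusted p = 1.8e-07).

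Targets of YAP and TAZ, the coactivators that respond to a stiff matrix and to tension, were split. Of 21 tested, 6 were called lower and 1 higher, against 6.11% and 6.65% of all genes tested, and the median was -0.32. Ankrd1, a standard reporter gene of YAP, had 8.24, 28.4, 83.8 and 42.7 CPM at 24 h and 0.675, 1.84, 0 and 2.5 CPM at 14 d (log2 fold change -5.05 ± 0.79, adjusted p = 7e-05). Ccn2 (connective tissue growth factor) had 1721, 2331, 5854 and 3165 CPM and 27.8, 542, 124 and 107 CPM (log2 fold change -4.03 ± 0.88, adjusted p = 0.002), with a wide spread among the recovered libraries. The receptor kinase Axl had 1423, 1139.6, 1388 and 1331 CPM and 455, 374, 463 and 404 CPM (log2 fold change -1.64 ± 0.15, adjusted p = 7.6e-08). The member called higher, Igfbp3, is a carrier of insulin-like growth factors and had 986, 499, 394 and 275 CPM against 2061, 1978, 2062 and 2175 CPM (log2 fold change 1.94 ± 0.32, adjusted p = 0.00013). The word CATTCC, bound by the TEAD partners of YAP, occurred on either strand in 8 of the 16 listed genes with a promoter window (50%) and in 4481 of all 27025 (16.6%). The contractile list held it in 11 of 22 windows, also 50%. Ankrd1, Axl and Ccn1 were the called genes among the 8 holders. The window of Ankrd1 (chr19:36119795-36120094, - strand) is printed because it holds the word at 2 places, from -210 and from -123, here read on the opposite strand and shown in capitals.
Ankrd1: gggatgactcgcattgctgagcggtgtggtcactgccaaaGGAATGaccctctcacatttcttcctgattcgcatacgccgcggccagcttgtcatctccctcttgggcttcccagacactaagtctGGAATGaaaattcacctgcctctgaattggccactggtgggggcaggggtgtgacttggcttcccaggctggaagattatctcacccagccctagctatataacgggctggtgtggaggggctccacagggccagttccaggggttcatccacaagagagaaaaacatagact

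Fibrillar collagen was lower at 14 d, and the main chains were still high at 72 h. Of 16 fibrillar and fibril-associated collagen genes, 10 were called lower and 0 higher (median -1.30). Col1a1 (chr11:94936224-94953042), the main chain of type I collagen, had 3987, 5779, 6302 and 6524 CPM at 24 h and 725, 491, 891 and 387 CPM at 14 d (log2 fold change -3.18 ± 0.37, adjusted p = 1.9e-06). At 72 h it still had 4676, 2928, 5299 and 4008 CPM, within or near the range at 24 h. Its fold change was -0.42 ± 0.34, adjusted p = 0.46 from 24 h to 72 h and -2.76 ± 0.36, adjusted p = 0.00021 from 72 h to 14 d on the log2 scale. Recovered libraries remained above the healthy ones, which had 187, 282, 304 and 148 CPM (log2 difference 1.44 ± 0.34, adjusted p = 0.0096).

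Col3a1 had a like course, with 8335, 9561, 11153 and 8744 CPM at 24 h, 11469.5, 8986, 14876 and 10186 CPM at 72 h and 4199, 3436, 4946 and 4385 CPM at 14 d (log2 fold change -1.16 ± 0.25, adjusted p = 0.0016 for 14 d against 24 h). Col1a2 was called lower as well (log2 fold change -1.83 ± 0.26, adjusted p = 2e-05) and had 4218, 3158, 5337 and 5169 CPM at 72 h. The fibril-associated Col12a1 and Col15a1 also dropped, in both intervals, and Col15a1 fell further than Col3a1 and Col1a2 but less than Col1a1. Col15a1 had 99.7, 151, 152 and 157 CPM, 32.7, 32.3, 47.4 and 31.1 CPM and 17, 17.1, 27.3 and 19.8 CPM at 24 h, 72 h and 14 d (log2 fold change -2.78 ± 0.36, adjusted p = 8.2e-06). Its healthy level was 1.18, 1.95, 3.2 and 1.21 CPM, and the log2 difference between 14 d and healthy was 3.42 ± 0.39, adjusted p = 9.2e-06. Col14a1, by contrast, had 297, 211, 350.2 and 273 CPM at 24 h and 458, 406, 619 and 579 CPM at 14 d with no overlap, and it did not reach the 2-fold minimum (log2 fold change 0.87 ± 0.31, adjusted p = 0.045).

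Some basement membrane genes differed, in both directions, with 4 called lower and 2 higher of 15 (median -0.14). Of all genes tested 6.11% were called lower and 6.65% higher. Type IV collagen fell, with 2059, 2550.2, 3829.7 and 4747 CPM of Col4a1 at 24 h and 483, 401, 611 and 592 CPM at 14 d (log2 fold change -2.66 ± 0.26, adjusted p = 1.9e-07), under its healthy 872, 1117, 897 and 793 CPM. Col4a2, transcribed from the same locus in the opposite direction, followed (log2 fold change -2.03 ± 0.20, adjusted p = 2.5e-07). The laminin chain Lama1 rose from 29.2, 14.7, 23.6 and 20.4 CPM to 52.1, 44.2, 64.5 and 48.6 CPM (log2 fold change 1.25 ± 0.33, adjusted p = 0.0082), and its healthy level was 134, 187, 179.8 and 57.6 CPM. The other member called higher was Col18a1, with 49.6, 36.7, 30.1 and 38.1 CPM and 88.2, 134, 63.6 and 52.4 CPM (log2 fold change 1.13 ± 0.38, adjusted p = 0.031). That call passed the adjusted p narrowly and was lost when chronic 14 d replicate 1 or 2 or chronic 24 h replicate 2, 3 or 4 was left out, with log2 fold changes of 1.11, 0.86, 1.11, 1.03 and 1.17.

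Enzymes that modify and crosslink collagen were lower in 11 of 23 cases and higher in 0 (median -0.99). Lox, the lysyl oxidase that starts collagen crosslinks, had 276, 412, 1051 and 786 CPM at 24 h and 18.1, 19.5, 34.8 and 22.6 CPM at 14 d (log2 fold change -4.73 ± 0.49, adjusted p = 5e-07), against 5.62, 7.9, 5.98 and 10.1 CPM in healthy cells. Loxl2, a related oxidase, had 90.7, 199, 246 and 294 CPM and 16.9, 23.6, 47.7 and 42 CPM (log2 fold change -2.67 ± 0.40, adjusted p = 4.5e-05). Both oxidases differed by more than the spread within either group. Loxl1 had 595, 559.5, 513 and 463 CPM at 24 h, 379, 314, 429.8 and 552 CPM at 72 h and 192, 176, 198 and 96.1 CPM at 14 d (log2 fold change -1.69 ± 0.24, adjusted p = 2.3e-05 for 14 d against 24 h). The hydroxylases P4ha2 (log2 fold change -2.25 ± 0.31, adjusted p = 1.7e-05) and Plod2 (log2 fold change -1.95 ± 0.25, adjusted p = 8.2e-06) and the chaperone Fkbp10 (log2 fold change -1.65 ± 0.19, adjusted p = 1.5e-06) fell in every recovered library.

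**Figure D2:**
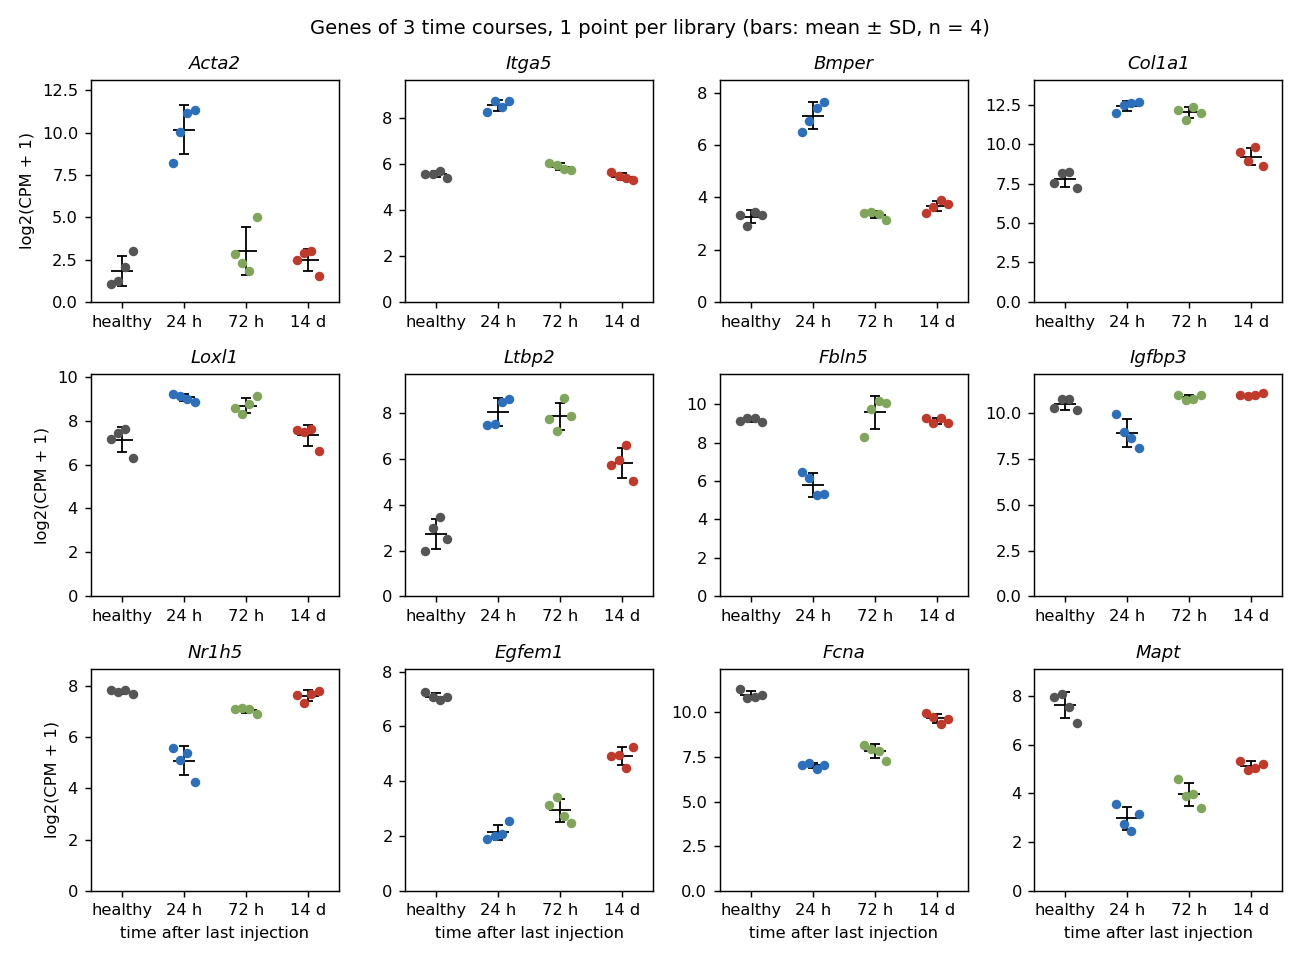
Log2(CPM + 1) of 12 genes in the healthy, chronic 24 h, chronic 72 h and chronic 14 d libraries, 1 point per library with the mean and SD of 4. Acta2, Itga5 and Bmper were near the healthy level by 72 h, Col1a1, Loxl1 and Ltbp2 were still near the 24 h level at 72 h, Fbln5, Igfbp3 and Nr1h5 were near or above the healthy level at 14 d, and Egfem1, Fcna and Mapt were still below it at 14 d.

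Matricellular proteins and proteoglycans were called lower in 17 of 29 cases and higher in 2 (median -1.36). Thbs1 (thrombospondin, which can release active TGF-beta) had 4111, 4962, 6723 and 6968 CPM at 24 h and 205, 293, 444 and 413 CPM at 14 d (log2 fold change -4.07 ± 0.35, adjusted p = 4.9e-08). Tnc (tenascin C), a protein of wounds, had 1282, 1693, 2453 and 2079 CPM and 98.4, 64.5, 137 and 104 CPM (log2 fold change -4.22 ± 0.42, adjusted p = 3.7e-07). The chondroitin sulphate proteoglycan Vcan had 82.3, 69.6, 60.9 and 48.6 CPM and 4.32, 4.34, 8.54 and 6.61 CPM (log2 fold change -3.45 ± 0.37, adjusted p = 7.6e-07). These 3 stayed above the healthy libraries, by log2 differences of 1.79, 1.85 and 1.44, each called, in a comparison where 1073 of all genes tested (5.72%) were called in either direction. Has2, the hyaluronan synthase, had no count in a recovered library and was at least 16-fold lower.

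Elastic fibre and small proteoglycan genes were split. Fbln5, which assembles elastic fibres, had 87.1, 69.7, 37.2 and 38.9 CPM at 24 h, 315, 865, 1142 and 1083 CPM at 72 h and 611, 520.1, 630.3 and 512 CPM at 14 d (log2 fold change 3.29 ± 0.41, adjusted p = 4.1e-06 for 14 d against 24 h). Its recovered level was also the healthy one of 552, 612, 611 and 542 CPM within the spread (log2 difference -0.03 ± 0.37, adjusted p = 0.98). Fbln2, a relative, went the other way (log2 fold change -3.12 ± 0.49, adjusted p = 7.4e-05), from 85.4, 161, 253 and 323 CPM to 17.4, 28.3, 28.1 and 20.7 CPM. Ogn (osteoglycin) rose (log2 fold change 1.65 ± 0.30, adjusted p = 0.00034). Dcn (decorin), a small proteoglycan that binds collagen fibrils, had 8649, 9445, 8533 and 6953 CPM and 16569, 14531, 10570.3 and 15205 CPM, and Prelp had 2888, 2126, 2566 and 2564 CPM and 4642, 3876, 4683 and 4811 CPM. Neither reached 2-fold, at log2 fold changes of 0.76 and 0.83, although their groups did not overlap.

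Proteases of the matrix and their inhibitors were lower in 14 of 25 cases and higher in 0 (median -1.35). Timp1, an inhibitor of matrix metalloproteinases made by activated HSCs, had 172, 128, 152 and 143 CPM at 24 h and 8.64, 5.66, 6.98 and 0 CPM at 14 d (log2 fold change -4.79 ± 0.92, adjusted p = 0.00065). The stromelysin Mmp3 had 18.9, 34.3, 50.9 and 99 CPM and 3.11, 6.05, 4.81 and 2.35 CPM (log2 fold change -3.63 ± 0.58, adjusted p = 8.1e-05). Mmp19, also a secreted metalloproteinase, had 119, 115, 77.7 and 74.4 CPM, 25.6, 28.4, 20.5 and 28.7 CPM and 7.97, 9.21, 10.1 and 6.02 CPM at 24 h, 72 h and 14 d (log2 fold change -3.53 ± 0.31, adjusted p = 4.9e-08 for 14 d against 24 h). Timp1 and these proteases were thus both lower, while the inhibitors Timp2 and Timp3 were not called. Mmp10 had no count in a recovered library and was at least 26-fold lower.

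Mmp2, a gelatinase that HSCs make, took another course. It had 929.5, 936, 842 and 711 CPM at 24 h, 1633, 1412, 2029 and 1431 CPM at 72 h and 621, 607, 627 and 401 CPM at 14 d, with no call between 24 h and 14 d (log2 fold change -0.60 ± 0.22, adjusted p = 0.057). From 72 h to 14 d its log2 fold change was -1.53 ± 0.23, adjusted p = 0.001. The collagen-degrading cathepsin Ctsk showed a like course, at 80.9, 77.3, 114 and 95.4 CPM, 102, 94.1, 148 and 213 CPM and 41.6, 37.1, 45.7 and 33.1 CPM (log2 fold change -1.22 ± 0.24, adjusted p = 0.00081 for 14 d against 24 h). Over the whole protease list the median difference between chronic 14 d and healthy was 1.22, with 10 of 25 called higher than in healthy cells. Over all genes tested 5.72% were called in either direction. Leukocyte genes were also above healthy at 14 d, with 8 of 8 neutrophil genes (median 7.20) called higher. So were 11 of 14 monocyte-derived and lipid-associated (3.21) and 9 of 18 macrophage genes (1.65). Mmp8, Mmp9, Mmp12 and Ctss stand on these lists too, and the part of leukocyte RNA was not tested. All healthy libraries were of the higher depth class and all chronic 14 d libraries of the lower one, so depth and group cannot be told apart in that comparison.

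Some of the lower genes are known from macrophages as well. Gpnmb, a transmembrane glycoprotein of lipid-associated macrophages, had 556, 933, 86.1 and 100.2 CPM at 24 h and 37.9, 76.7, 32.8 and 22.9 CPM at 14 d (log2 fold change -3.30 ± 0.79, adjusted p = 0.0042). Of 18 macrophage genes, 6 were called lower and 0 higher, and of 14 monocyte-derived and lipid-associated macrophage genes 6 were lower and 0 higher. Ctss of the first list and Mmp12 of the second were also counted among the lower proteases. Fn1 and Spp1 of the second were also counted among the lower matricellular genes, and Spp1 as the lower cholangiocyte gene. The first list summed to 956 to 5378 CPM in chronic 24 h and 1117 to 2355 CPM in chronic 14 d, and the second to 2219.6 to 3951 CPM and 801 to 1137 CPM. No member of the first list was at 0 in all libraries of either group, and of the second only Chil3 was, in chronic 14 d. The number of lower macrophage genes was 10 among lower-depth libraries only and 8 with depth class as a term. It fell to 2 without chronic 24 h replicate 1 and to 1 without replicate 2. It was 1 without chronic 14 d replicate 1, 3 or 4, and the second list had 3 without chronic 14 d replicate 1. The part of macrophage RNA in these genes was not tested.

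The plasminogen system, which activates matrix proteases, was lower in 6 of 11 genes and higher in 0 (median -1.71). Plat, the tissue-type activator, had 851, 1023, 791 and 713 CPM at 24 h and 149, 138, 122 and 76.7 CPM at 14 d (log2 fold change -2.80 ± 0.29, adjusted p = 5e-07). Plau, the urokinase, had 36.7, 91.7, 71.2 and 41.5 CPM and 6.48, 6.58, 3.37 and 2.64 CPM (log2 fold change -3.66 ± 0.42, adjusted p = 1.9e-06), and its receptor Plaur fell too (log2 fold change -2.51 ± 0.36, adjusted p = 2.1e-05). Plat and Plaur were still called above healthy cells at 14 d, by 2.41 and 2.52 on the log2 scale.

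**Figure D3:**
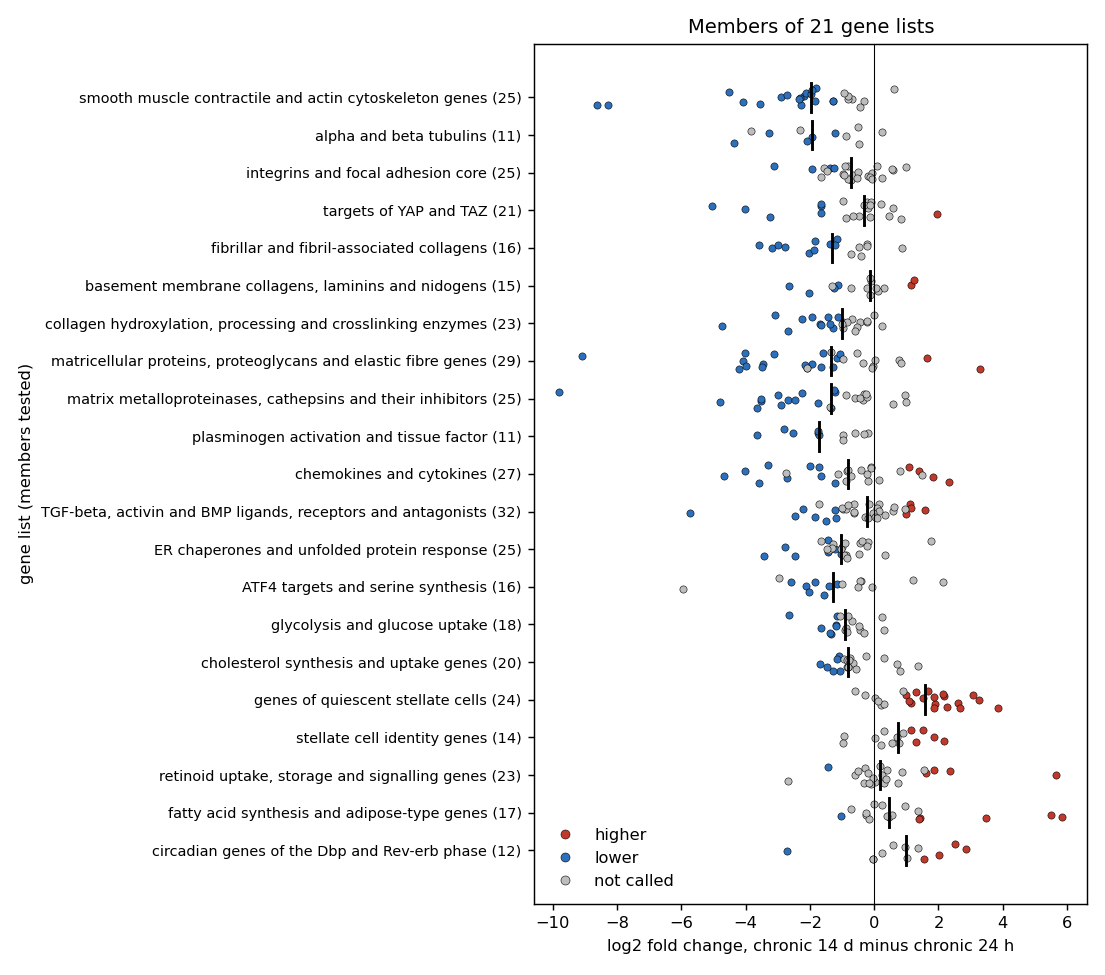
Log2 fold change (chronic 14 d minus chronic 24 h) of each tested member of 21 gene lists, coloured by call, with a black bar at each list's median. Contractile, collagen, protease and plasminogen genes lie to the left, the contractile median being -1.95, and genes of quiescent stellate cells lie to the right with a median of 1.59. The points of Actg2, Has2 and Mmp10, which had no count at 14 d, are fitted values that depend on the prior count.

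Some ligands, receptors and antagonists of the TGF-beta family differed, in both directions. Of 32 genes of the TGF-beta, activin and BMP pathways, 7 were called lower and 4 higher (median -0.23). Of all genes tested 6.11% were called lower and 6.65% higher. The other 21 of the list were not called. Among ligands, Tgfb3 had 299.8, 386, 587 and 643 CPM at 24 h and 83.5, 84.7, 105 and 76.2 CPM at 14 d (log2 fold change -2.46 ± 0.28, adjusted p = 1.3e-06). Bmp4, a bone morphogenetic protein, rose from 53.5, 34.7, 40.7 and 34.9 CPM to 126, 148, 95.1 and 119 CPM (log2 fold change 1.58 ± 0.17, adjusted p = 8.3e-07), toward 201, 208, 207 and 172 CPM in healthy cells. Neither pair of groups overlapped. Among binding proteins, Fstl3, an activin antagonist, had 77.2, 111, 131 and 166 CPM and 0, 3.16, 5.77 and 0 CPM (log2 fold change -5.72 ± 1.11, adjusted p = 0.0007). Fstl1 had 1243, 1487, 2323 and 2186 CPM and 484, 432, 551 and 536 CPM (log2 fold change -1.85 ± 0.20, adjusted p = 1e-06). The latent TGF-beta binding proteins parted, since Ltbp2 had 179.6, 185, 363 and 398 CPM and 52.5, 60.5, 98.6 and 31.7 CPM (log2 fold change -2.21 ± 0.46, adjusted p = 0.0013) whereas Ltbp4 had 432, 489.5, 514 and 662 CPM and 1293, 1033, 1132 and 1124 CPM (log2 fold change 1.13 ± 0.23, adjusted p = 0.001).

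Of 7 PDGF ligands and receptors, 1 was called higher and 0 lower, against 6.65% and 6.11% of all genes tested. Pdgfd, a ligand, had 14.5, 7.96, 12.9 and 12.2 CPM at 24 h and 32.7, 39.2, 38.4 and 40.7 CPM at 14 d (log2 fold change 1.66 ± 0.30, adjusted p = 0.00035). Its receptor Pdgfrb, a mitogen receptor of HSCs, had 2342, 1978, 2018 and 2264 CPM and 1182, 823, 1213 and 1185 CPM, lower in every recovered library and just under 2-fold (log2 fold change -0.97 ± 0.23, adjusted p = 0.0036). The groups overlapped in neither gene.

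Of 27 chemokines, cytokines and their receptors, 9 were called lower and 4 higher (median -0.82), against 6.11% and 6.65% of all genes tested. Without chronic 14 d replicate 3, 2 were higher. Il11, a cytokine of fibroblast activation, had 8.69, 27.7, 12.5 and 22.6 CPM at 24 h and 0.945, 0.789, 0.481 and 0.588 CPM at 14 d (log2 fold change -4.66 ± 0.54, adjusted p = 1.8e-06). Tnfrsf12a, the receptor of TWEAK, had 48.7, 101, 125 and 179 CPM and 5.81, 10.9, 5.65 and 5.58 CPM (log2 fold change -4.02 ± 0.55, adjusted p = 1.4e-05). The monocyte attractant Ccl7 had 227, 654, 396 and 287 CPM and 27.5, 40.1, 29.1 and 33.8 CPM (log2 fold change -3.58 ± 0.44, adjusted p = 4.2e-06). In healthy libraries Il11 had 0.544, 0.39, 0 and 0 CPM, Tnfrsf12a 6.8, 7.41, 8.09 and 9.45 CPM and Ccl7 33.4, 18.9, 14.3 and 22.8 CPM. Cxcl10, an interferon-induced attractant of T cells, went up from 55.3, 58.6, 52.9 and 48.7 CPM to 306, 288, 270.0 and 211 CPM (log2 fold change 2.32 ± 0.45, adjusted p = 0.00061), and so did Il34, a ligand of the macrophage growth factor receptor (log2 fold change 1.39 ± 0.35, adjusted p = 0.0063). 

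Of 26 Wnt, hedgehog and Notch genes, 3 were called lower and 2 higher, against 6.11% and 6.65% of all genes tested. The other 21 were not called, and the list median was 0.09. Without chronic 14 d replicate 4, 1 was called higher. Dkk3, a secreted protein of the Dickkopf family, had 756, 579, 635 and 567 CPM at 24 h, 649.5, 503, 870.3 and 738 CPM at 72 h and 269, 277, 311 and 232 CPM at 14 d (log2 fold change -1.22 ± 0.17, adjusted p = 2e-05 for 14 d against 24 h). The Wnt receptor Fzd1 (log2 fold change -1.35 ± 0.22, adjusted p = 0.00012) and the hedgehog co-receptor Boc (log2 fold change -1.41 ± 0.26, adjusted p = 0.00042) fell in every recovered library. Hhip, an inhibitor of hedgehog ligands, rose from 22.8, 7.69, 6.23 and 7.12 CPM to 35, 29.9, 41.4 and 52.6 CPM (log2 fold change 1.87 ± 0.44, adjusted p = 0.0032).

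Several genes for folding and exporting protein were lower after recovery. Of 25 endoplasmic reticulum chaperones and genes of the unfolded protein response, 7 were called lower and 0 higher (median -1.02), 11 were lower without chronic 24 h replicate 1 and 4 among lower-depth libraries. Hyou1, a chaperone induced by unfolded protein, had 109, 179.8, 217 and 241 CPM at 24 h and 16.7, 14.3, 23.7 and 55.5 CPM at 14 d (log2 fold change -2.76 ± 0.64, adjusted p = 0.0032). Kdelr3, which returns chaperones to the endoplasmic reticulum, had 135, 225, 264 and 251 CPM and 51.3, 38.6, 42.2 and 28.1 CPM (log2 fold change -2.45 ± 0.27, adjusted p = 8.3e-07). Sec24d, a coat protein of the vesicles that carry procollagen, had 188, 286, 372 and 341 CPM and 87.9, 91.2, 141 and 117 CPM (log2 fold change -1.44 ± 0.23, adjusted p = 8.9e-05). For all 3 the groups were apart.

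Genes of amino acid and sugar metabolism were lower in part. Of 16 targets of ATF4 and genes of serine synthesis, 7 were called lower and 0 higher (median -1.28). Psat1, an enzyme of serine synthesis, had 11.7, 14.7, 8.77 and 14.1 CPM and 3.65, 1.97, 3.37 and 2.2 CPM (log2 fold change -2.13 ± 0.33, adjusted p = 5.6e-05). Aldh18a1, which makes the proline precursor that collagen needs, had 82.1, 88.5, 118 and 109 CPM and 39.2, 30.9, 31.4 and 32.9 CPM (log2 fold change -1.56 ± 0.21, adjusted p = 1.1e-05). In glycolysis 7 of 18 genes were lower and 0 higher (median -0.90). Hk2, the inducible hexokinase, had 54.4, 61.5, 98.4 and 86.2 CPM, 25.9, 43.9, 40.4 and 40.03 CPM and 13.5, 12.9, 10.7 and 10.9 CPM at 24 h, 72 h and 14 d (log2 fold change -2.65 ± 0.23, adjusted p = 4.9e-08 for 14 d against 24 h). Pkm, the pyruvate kinase of proliferating cells, had 760.1, 823, 713 and 784 CPM and 393, 331, 219 and 242 CPM (log2 fold change -1.38 ± 0.18, adjusted p = 1.1e-05). Of 20 cholesterol genes, 6 were called lower and 0 higher (median -0.81), with 0 lower among lower-depth libraries, 2 without chronic 24 h replicate 4 and 3 without chronic 14 d replicate 3.

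Most listed genes of quiescent HSCs rose. The list was chosen with earlier results of these data known, so its count is not an independent test. Of 24 tested, 17 were called higher and 0 lower in chronic 14 d, against 6.65% of all genes tested that were called higher, with a median log2 fold change of 1.59. Angptl6, a secreted angiopoietin-like protein, had 51.4, 28.7, 33 and 29.4 CPM at 24 h and 589.6, 536, 432 and 487 CPM at 14 d (log2 fold change 3.85 ± 0.37, adjusted p = 1.8e-07). Egfem1 had 2.7, 3.02, 3.24 and 4.8 CPM and 29.6, 30.4, 21.2 and 37.3 CPM (log2 fold change 3.08 ± 0.27, adjusted p = 5.4e-08). Pcsk6, a proprotein convertase, had 7.34, 5.63, 6.05 and 7.52 CPM and 55.9, 72, 74.4 and 53.6 CPM (log2 fold change 3.27 ± 0.33, adjusted p = 4.2e-07). None of the 3 overlapped between groups, and none had regained its healthy level, from which it differed by -1.45, -2.20 and -1.73 on the log2 scale, each called.

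Lectins of the complement pathway belonged to this group. Fcna (ficolin A) had 133, 141, 113 and 130.4 CPM at 24 h, 292, 249, 223 and 156 CPM at 72 h and 983, 838, 654 and 799.9 CPM at 14 d (log2 fold change 2.66 ± 0.35, adjusted p = 9.6e-06 for 14 d against 24 h), against 2531, 1765, 1839 and 2027 CPM in healthy cells. Colec11 had 619, 380.1, 372 and 349 CPM and 1856, 1581, 1202 and 1589 CPM (log2 fold change 1.86 ± 0.24, adjusted p = 5.9e-06), and Colec10 rose with it (log2 fold change 1.66 ± 0.26, adjusted p = 6.2e-05). Vipr1, a receptor of vasoactive intestinal peptide, had 518, 295, 444 and 349 CPM and 1678, 1471, 1607 and 2324 CPM (log2 fold change 2.14 ± 0.27, adjusted p = 5.5e-06). Ngfr, the low-affinity nerve growth factor receptor, had 30.7, 31.2, 26.2 and 35.4 CPM and 148, 105, 145 and 156 CPM (log2 fold change 2.16 ± 0.41, adjusted p = 0.00057). Mapt (tau) remained far from its healthy 250.3, 274, 186 and 118 CPM, at 34.4 ± 4.39 CPM (SD, n = 4) in chronic 14 d (log2 difference -2.59 ± 0.38, adjusted p = 0.00015).

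Over the whole list, the median log2 difference between chronic 14 d and healthy was -0.88, with 11 of 24 members called lower and 1 higher than in healthy libraries, which were all of the higher depth class. Lrat, the enzyme that esterifies retinol for storage, had 1284, 974, 1003 and 1088 CPM at 24 h and 665, 901, 1579.9 and 1271 CPM at 14 d and was not called. Hgf was not called either. Among transcription factors of the lineage, 2 of 19 were higher and 1 lower, against 6.65% and 6.11% of all genes tested. Lhx2, which restrains HSC activation, had 225, 125, 108 and 81.9 CPM and 532, 379, 356 and 279 CPM (log2 fold change 1.52 ± 0.26, adjusted p = 0.00017), and Irf1 had 375, 315, 284 and 307 CPM and 867, 844, 679 and 631 CPM (log2 fold change 1.24 ± 0.26, adjusted p = 0.0014). The factor called lower was Meox1, a homeobox gene of activated fibroblasts, with 1.95, 3.29, 2.54 and 3.12 CPM and 0.81, 1.58, 0.481 and 0 CPM (log2 fold change -1.90 ± 0.68, adjusted p = 0.047). That call was lost without chronic 14 d replicate 1, 3 or 4 or chronic 24 h replicate 2, 3 or 4, at log2 fold changes of -1.96 to -1.45.

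Some retinoid genes differed. Of 23 genes of retinoid uptake, storage and signalling tested, 4 were called higher and 1 lower (median 0.18). Of all genes tested 6.65% were called higher and 6.11% lower. Among lower-depth libraries 0 of the list were higher. Without chronic 24 h replicate 3, and likewise without chronic 14 d replicate 2, 2 were higher. Cyp26a1, the hydroxylase that breaks down retinoic acid, had 0, 0, 0 and 0.32 CPM at 24 h and 2.3, 16.6, 2.41 and 0.881 CPM at 14 d (log2 fold change 5.65 ± 1.16, adjusted p = 0.0013). A single chronic 24 h library had any count. The log2 fold change was 8.90 without that library, chronic 24 h replicate 4, and 4.15 without chronic 14 d replicate 2. Chronic 14 d replicate 2 also had the highest hepatocyte sum of its group. The other members called higher were Adh1, Pnpla3 and Rarres1. The part of hepatocyte RNA in the rise of these genes and of Cyp26a1 was not tested. Dhrs3, which turns retinaldehyde back into retinol, fell from 318, 237, 179 and 244 CPM to 80.2, 114, 79.1 and 84 CPM (log2 fold change -1.45 ± 0.29, adjusted p = 0.00074), and at 72 h it still had 285, 192, 390.4 and 409 CPM. Lpl, the lipoprotein lipase, had 2019, 2489.5, 1989.8 and 1776 CPM and 793, 746, 686 and 606 CPM (log2 fold change -1.55 ± 0.19, adjusted p = 5.1e-06).

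Among called protein-coding genes whose groups did not overlap and whose log2 CPM averaged 3 or more, the 12 highest fold changes belonged mainly to genes that hepatocytes express strongly. Car3, a carbonic anhydrase abundant in liver and fat, had 14.8, 20.6, 8.33 and 9.84 CPM at 24 h and 648, 1776, 347 and 313 CPM at 14 d (log2 fold change 5.85 ± 0.85, adjusted p = 3.4e-05). Thrsp, a regulator of lipogenesis, had 1.05, 2.06, 1.23 and 1.92 CPM and 40.6, 166, 30.5 and 49.1 CPM (log2 fold change 5.50 ± 0.93, adjusted p = 0.00017). Cyp2e1, the cytochrome that bioactivates CCl4, had 5.85, 2.61, 0.702 and 1.28 CPM and 105, 97.8, 39.3 and 25.6 CPM (log2 fold change 4.75 ± 0.78, adjusted p = 0.00013). In 2 of these 3 genes chronic 14 d replicate 2 was the highest library. Slc10a1, the bile acid importer of hepatocytes, had 9.29, 5.77, 1.05 and 3.76 CPM and 51.6, 148, 36.6 and 25.1 CPM (log2 fold change 3.75 ± 0.61, adjusted p = 0.00011). Ugt3a2, Cyp2f2, Mup3, Ugt2b1, Upp2, Cyp3a25 and Ces3a completed the 12 highest with Angptl6, at log2 fold changes of 3.69 to 4.00. Mup3, Ugt2b1, Cyp3a25 and Ces3a have close paralogs, so reads may be split between copies.

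Most hepatocyte genes were higher in chronic 14 d. Of 30 hepatocyte genes, 18 were called higher and 0 lower (median 2.42). They summed to 4727, 3383, 1168 and 1646 CPM in the chronic 24 h libraries and 8239, 19081, 4636 and 4340.0 CPM in the chronic 14 d libraries, and no member was at 0 in all libraries of a group. The chronic 24 h replicate 1 lay above chronic 14 d replicates 3 and 4. Without chronic 14 d replicate 2, 8 members were called higher, and 6 were among lower-depth libraries. Alb (albumin), the most abundant transcript of hepatocytes, had 479.8, 408, 106 and 199.8 CPM and 879.9, 2107, 373 and 309 CPM and was not called (log2 fold change 1.62 ± 0.79, adjusted p = 0.15). The part of hepatocyte RNA in the rise of Car3, Thrsp, Cyp2e1, Slc10a1 and the other genes of this kind was not tested.

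Some lipid synthesis genes rose. Of 17 fatty acid synthesis and adipose-type genes, 5 were called higher and 1 lower (median 0.47), against 6.65% and 6.11% of all genes tested. Mlxipl, the carbohydrate-responsive factor that drives lipogenesis in hepatocytes, had 3.45, 2.06, 0 and 1.36 CPM and 16.3, 39.5, 9.38 and 7.93 CPM (log2 fold change 3.47 ± 0.79, adjusted p = 0.0031). Acss2, which makes acetyl-CoA from acetate, had 10.8, 11.8, 8.07 and 12 CPM and 27, 45, 20.4 and 18.7 CPM (log2 fold change 1.38 ± 0.26, adjusted p = 0.00051). Dgat2, which makes triglyceride, had 34, 21.4, 8.42 and 23.1 CPM and 115, 183, 83.8 and 74.5 CPM (log2 fold change 2.39 ± 0.41, adjusted p = 0.00017). The order of the recovered libraries, replicate 2 highest, was that of the hepatocyte sums, and the part of hepatocyte RNA in these genes was not tested. Ucp2, an uncoupling protein that macrophages also express, had 514, 383, 204 and 252 CPM and 123, 153, 129 and 101 CPM (log2 fold change -1.42 ± 0.31, adjusted p = 0.0019).

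Most endothelial genes were higher as well. Of 16 genes of liver sinusoidal endothelium, 13 were called higher and 0 lower (median 1.80), 7 with depth class as a term in the model. The list summed to 315, 351, 107 and 257 CPM at 24 h and 984, 1037, 647 and 641 CPM at 14 d with no overlap. Kdr, the main receptor of VEGF, had 19, 23.5, 7.45 and 23 CPM and 125, 89.5, 101 and 103 CPM (log2 fold change 2.52 ± 0.57, adjusted p = 0.0027). Clec4g had 13.5, 22.4, 9.82 and 23.8 CPM and 143, 115, 46.7 and 55.4 CPM (log2 fold change 2.37 ± 0.42, adjusted p = 0.00024), and Stab2, a scavenger receptor, rose likewise (log2 fold change 2.68 ± 0.76, adjusted p = 0.013). Stab1 and Lyve1 were not called. The healthy libraries summed to 283, 435, 847 and 701 CPM on this list, a range that overlaps the recovered libraries. No member was at 0 in all libraries of a group. Clec14a, which is not on the list, is expressed by endothelium too, and the part of endothelial RNA in its rise was not tested.

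Of 8 B cell genes, 4 were called higher and 0 lower at low levels, and the list summed to 114, 204, 77.7 and 103 CPM at 24 h and 507, 447, 573 and 268 CPM at 14 d. Igkc, the kappa light chain, had 55.9, 84.3, 38.9 and 54.6 CPM and 307, 264, 273 and 139.6 CPM (log2 fold change 2.07 ± 0.43, adjusted p = 0.0011). Only 1 member was called without chronic 24 h replicate 1, 3 or 4 or chronic 14 d replicate 3, and 2 were without chronic 14 d replicate 1. Among 8 neutrophil and 9 dendritic cell genes 0 were called in either direction. Of 9 vascular smooth muscle genes, which share Acta2-type genes with the contractile list, 5 were lower and 0 higher, whereas the list summed to 765, 798, 1197 and 1028 CPM at 24 h and to 1469, 1324, 1378 and 1887 CPM at 14 d. Rgs5, a pericyte gene on that list, had 687, 675, 954 and 780.4 CPM and 1408, 1263, 1288 and 1811 CPM and was not called.

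**Figure D4:**
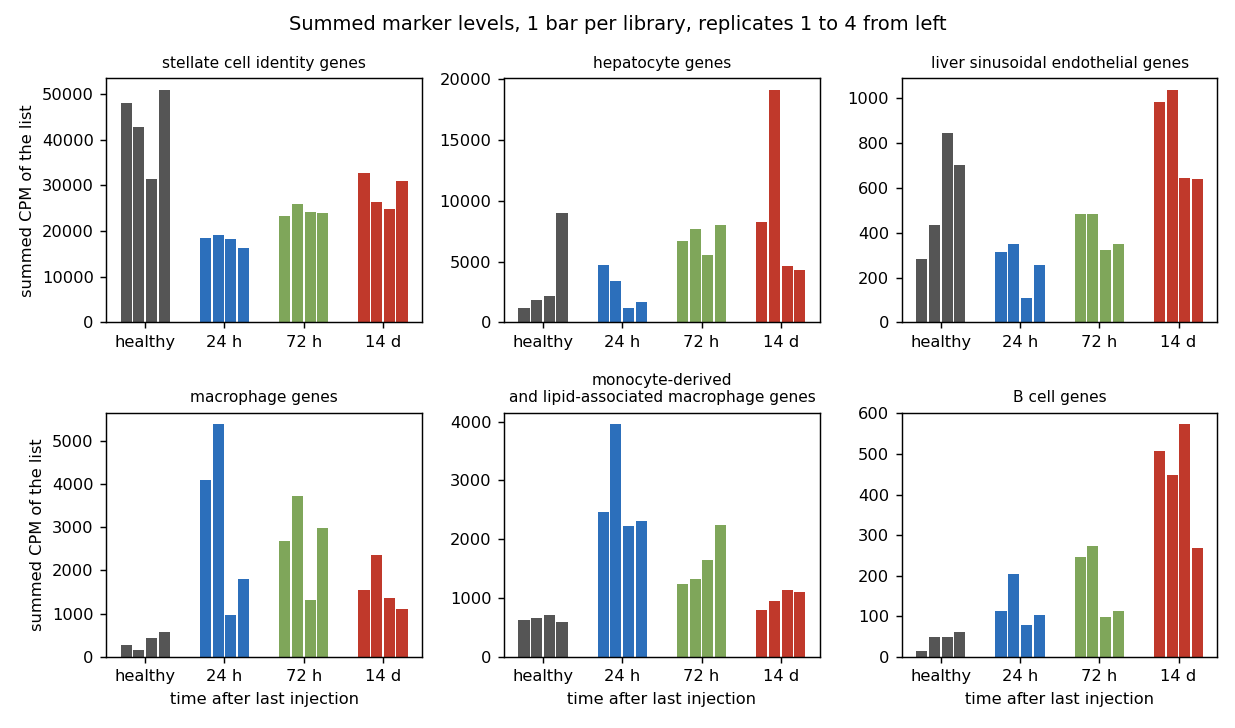
Summed CPM of 6 marker lists in the healthy, chronic 24 h, chronic 72 h and chronic 14 d libraries, 1 bar per library with replicates 1 to 4 from left. Hepatocyte genes were highest in chronic 14 d replicate 2, macrophage genes in chronic 24 h replicates 1 and 2, and B cell genes in chronic 14 d replicates 1 to 3.

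Circadian genes differed between the time points. The hour at which livers were taken is not given in the sources used here, so time of day and time of recovery cannot be told apart. Of 12 genes of the Dbp and Rev-erb phase, 4 were called higher and 1 lower (median 1.00), against 6.65% and 6.11% of all genes tested. Of 6 genes of the opposite phase 1 was higher and 1 lower. Dbp, a PAR-bZIP factor, had 2.4, 3.29, 18.3 and 23.1 CPM at 24 h and 101, 92.2, 74.6 and 76.7 CPM at 14 d (log2 fold change 2.85 ± 0.74, adjusted p = 0.0072). Nr1d1 (Rev-erb alpha), a repressor within the clock, had 59.5, 50.9, 75.6 and 148 CPM and 424, 278, 368 and 290.3 CPM (log2 fold change 2.02 ± 0.40, adjusted p = 0.00082). Nfil3, which binds the same sites as Dbp and opposes it, had 263, 230.5, 195 and 111 CPM and 22, 33.8, 22.9 and 18.7 CPM (log2 fold change -3.04 ± 0.39, adjusted p = 8e-06). Dbp was low in chronic 24 h replicates 1 and 2, which were also the lower-depth libraries, and Nfil3 was lowest in replicate 4.

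The sites that Dbp and Nfil3 share were searched as TTATGTAA or TTACGTAA on both strands. They occurred in 1 of 11 genes of the Dbp phase with a promoter window and in 333 of all 27025 (1.23%). The holder was Per3, a period gene, printed because it carries the word at 2 places, from -205 and from -158 (chr4:151044616-151044915, - strand), shown in capitals.
Per3: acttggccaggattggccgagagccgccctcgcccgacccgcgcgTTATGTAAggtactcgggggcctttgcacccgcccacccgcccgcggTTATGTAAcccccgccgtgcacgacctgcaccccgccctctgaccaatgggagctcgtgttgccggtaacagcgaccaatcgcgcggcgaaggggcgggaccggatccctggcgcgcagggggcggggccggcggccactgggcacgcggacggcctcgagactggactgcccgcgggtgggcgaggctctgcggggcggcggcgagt
Per3 had 2.1, 2.2, 7.72 and 7.2 CPM at 24 h and 19.99, 13.3, 13.4 and 11.6 CPM at 14 d (log2 fold change 1.57 ± 0.50, adjusted p = 0.026). Its call was lost without chronic 14 d replicate 1 (1.38), chronic 24 h replicate 1 (1.33) or chronic 24 h replicate 2 (1.34). The E-box CACGTG stood in 4 of the 11 windows (36.4%) and in 2187 of all 27025 (8.09%), and none of those 4 genes was called.

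Immediate early genes, which dissociation of tissue can induce, were abundant in both groups. Of 21 tested, 4 were called lower and 0 higher (median -0.37), against 6.11% and 6.65% of all genes tested. Without chronic 24 h replicate 2, 2 were lower, and with scaling by library size alone 1 was. The list summed to 47951 to 50673 CPM in chronic 24 h and 38754 to 51259 CPM in chronic 14 d. Fos had 9478, 9114, 9075 and 8390.2 CPM and 9028, 9609, 6625 and 6761 CPM and was not called. Fosl1, an AP-1 subunit of activated fibroblasts, had 5.1, 17, 6.23 and 15.9 CPM and 1.22, 1.58, 0.481 and 0.735 CPM (log2 fold change -3.46 ± 0.69, adjusted p = 0.00081).

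DNA replication and mitosis genes had a median log2 fold change of -0.11 over 30 tested, and 25 were not called. Cdk1, Mcm6 and Uhrf1 were called lower and Ccnb2 and Nusap1 higher, where 6.11% and 6.65% of all genes tested were. Cdk1, the mitotic kinase, had 8.24, 6.45, 7.19 and 4.88 CPM at 24 h, 7.6, 7.14, 7.55 and 8.3 CPM at 72 h and 3.11, 3.29, 2.53 and 1.91 CPM at 14 d (log2 fold change -1.29 ± 0.32, adjusted p = 0.0048 for 14 d against 24 h). Gsta4, a glutathione transferase that detoxifies lipid aldehydes, had 7.49, 5.08, 5.88 and 6.24 CPM and 27.3, 28.4, 16.1 and 20.3 CPM (log2 fold change 1.90 ± 0.24, adjusted p = 6.9e-06). Of the NRF2 antioxidant genes, to which it belongs, Osgin1 and Gstm1 were also higher, and Hmox1, Srxn1 and Slc7a11 were lower. Serpina3n, an acute phase protease inhibitor, had 1461, 923, 1421 and 1203 CPM and 105, 222, 98.5 and 57.1 CPM (log2 fold change -3.37 ± 0.62, adjusted p = 0.00037). Mt2 and Lcn2 of the same metallothionein and acute phase list were lower too, and Crp was higher. Of 11 IGF genes 2 were higher and 0 lower, namely Igfbp3 and the hepatocyte-type Igfals (log2 fold change 4.23 ± 0.67, adjusted p = 8.2e-05).

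Further lists had at most 3 members called in a direction, where 6.65% of all genes tested were called higher and 6.11% lower. The counts called higher and lower were 0 and 2 of 20 for interferon-stimulated genes, 1 and 2 of 19 for lipid droplet and lipid uptake genes, 2 and 1 of 19 for fatty acid oxidation genes, 2 and 0 of 15 for p53 targets and cell cycle inhibitors, 2 and 3 of 30 for replication and mitosis genes and 3 and 3 of 16 for NRF2 antioxidant genes. They were 1 and 3 of 15 for metallothionein and acute phase genes, 1 and 0 of 7 for Kupffer cell genes, 1 and 0 of 12 for T and NK cell genes, 0 and 1 of 7 for cholangiocyte genes and 2 and 1 of 15 for mesothelial and portal fibroblast genes. Leaving out any 1 of the 8 libraries moved at least 1 of these counts by more than 1.5 times, within a range of 0 to 5.

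Under the same rule as for the 12 highest, other genes among the 12 lowest have roles outside these lists. Gpr176, an orphan receptor, had 79.4, 161, 319.7 and 368 CPM at 24 h and 4.86, 4.87, 6.74 and 4.11 CPM at 14 d (log2 fold change -5.49 ± 0.64, adjusted p = 2.5e-06). Aoc1, a diamine oxidase, had 150.3, 65.3, 169 and 139 CPM and 2.7, 3.03, 4.33 and 3.82 CPM (log2 fold change -5.23 ± 0.63, adjusted p = 3.3e-06). Ch25h, which makes 25-hydroxycholesterol, had 233, 414, 403 and 199.8 CPM and 11.9, 20.4, 13.6 and 12.2 CPM (log2 fold change -4.43 ± 0.40, adjusted p = 8.9e-08). The groups of each were apart by a wide margin. Cthrc1, a secreted protein of matrix-producing fibroblasts, had 7.94, 32.4, 74.1 and 51.2 CPM and 1.35, 2.5, 2.53 and 1.47 CPM (log2 fold change -4.39 ± 0.88, adjusted p = 0.00098). Cdh3 (P-cadherin, log2 fold change -4.27 ± 0.38, adjusted p = 6.3e-08) and Rin1, a Ras effector (log2 fold change -4.55 ± 0.47, adjusted p = 4.6e-07), fell too. Spcs2, a subunit of the signal peptidase, met the rule with 51.7, 409, 312 and 343 CPM and 21.9, 3.82, 12.9 and 18.1 CPM (log2 fold change -4.30 ± 1.16, adjusted p = 0.0096), but it varied over 178, 28.1, 30.7 and 236 CPM within the healthy group and over 0.667, 18.1, 168 and 47.9 CPM at 72 h.

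Long noncoding genes were named by the same fold rule, 4 in each direction. Fendrr, which lies beside Foxf1, had 35.8, 21.7, 16.8 and 20.1 CPM at 24 h and 74.3, 88.3, 81.7 and 79 CPM at 14 d (log2 fold change 1.78 ± 0.30, adjusted p = 0.00017), and Hand2os1, beside Hand2, had 94.1, 55.5, 41 and 63 CPM and 182, 205, 184 and 194 CPM (log2 fold change 1.59 ± 0.29, adjusted p = 0.00032). Foxf1 and Hand2 themselves, factors of the HSC lineage, were not called. BC024386 (3.81) and Gm14964 (2.63) were the other 2 of the 4 highest, and Gm17501 (-2.72), Gm27177 (-2.72), 5330438I03Rik (-2.38) and Gm7008 (-1.99) were the 4 lowest, all as log2 fold changes. The call of Gm27177 was lost without any of the 4 chronic 14 d libraries or chronic 24 h replicate 2, 3 or 4, at log2 fold changes of -2.92 to -2.30. Gm14964, Gm27177, 5330438I03Rik and Gm7008 are annotated as antisense, and since the counting is not stated to use strand, their reads cannot be told apart from those of the opposite gene.

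Depth class bore on a minority of the genes named. Within lower-depth libraries the calls of Vcl, Myl9, Col18a1, Meox1, Acss2, BC024386, Ccn2, Cyp26a1, Cyp3a25, Hhip, Il34 and Spcs2 were lost at adjusted p values of 0.059 to 0.21. There Ctsk (-0.95) had a log2 fold change under the 2-fold minimum. All of these kept their direction in those libraries. With depth class as a term, Stab2, Actg2, Col18a1, Ctsk, Gm27177 and Meox1 lost their calls, and with scaling by library size alone Col3a1 and Meox1 did. DESeq2's own test did not call Actg2 (adjusted p = 0.16) or Mmp10 (adjusted p = 0.063).

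The chronic 72 h libraries divided the change into an early and a late part. They were compared with 24 h, where 1570 genes (8.37%) were called, and with 14 d, where 169 (0.901%) were. These comparisons share libraries with each other and with that of 14 d against 24 h, and 2 of the 4 chronic 72 h libraries were of the higher depth class. Contractile genes had a median of -1.96 from 24 h to 72 h, with 19 of 25 called lower, and of 0.00 from 72 h to 14 d, with 0 called lower. Tubulins (-1.29 and -0.23), glycolysis (-0.94 and -0.11) and ER chaperones (-0.73 and -0.18) likewise had most of the median difference in the first interval. Fibrillar collagens had -0.41 in the first interval, with 3 of 16 called lower, and -0.82 in the second, with 6. The proteases had -0.83 and -0.89. Quiescence genes gained 0.85 and then 0.69, with 9 and 8 called higher. Over all genes tested the medians of the 2 intervals were 0.0 and -0.01. Whether lists differed from each other in their timing was not tested.

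**Figure D5:**
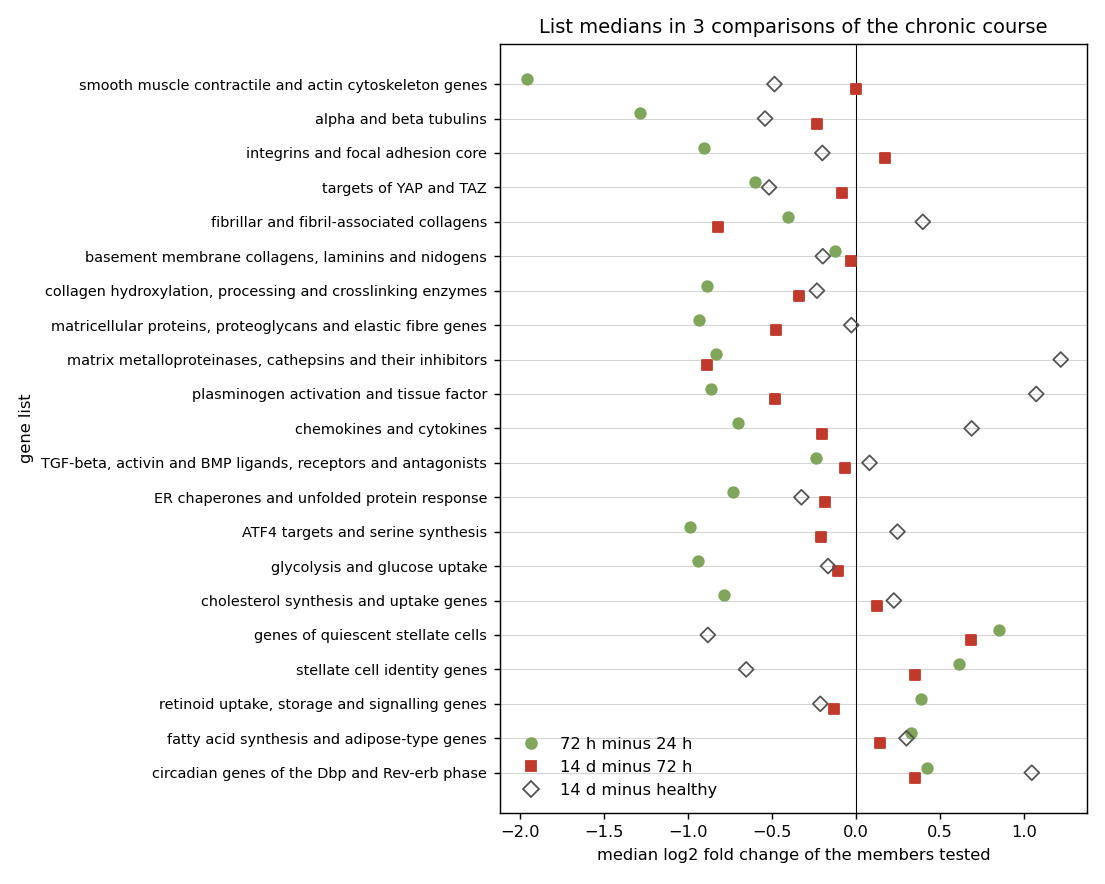
Median log2 fold change of the tested members of 21 gene lists from 24 h to 72 h (circles), from 72 h to 14 d (squares) and between 14 d and healthy (diamonds). The contractile circle lies at -1.96 and its square at 0.00, whereas for fibrillar collagens the square at -0.82 lies left of the circle at -0.41.

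Against healthy libraries, chronic 14 d differed in 1073 genes (5.72%), in a comparison where depth class and group cannot be told apart. The contractile list of 25 lay at a median of -0.48, with 1 gene called higher and 1 lower. The collagen list lay at 0.40, with 4 of 16 called higher, Col15a1, Col12a1 and Col1a1 among them. The quiescence list lay at -0.88. Over all genes tested the median was -0.03.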

How the data were processed

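RNA-seq libraries of sorted hepatic stellate cells were sequenced as single-end reads of 75 bases. The deposited table holds raw gene counts that the authors made. Per the labels STAR, StringTie and GRCm38 were used, but the counting step, its strand setting and the annotation release are not given in the sources used here. Gene symbols follow GENCODE M21. Of 53379 genes, 16198 had no count in any library.

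Analysis of the counts used edgeR 4.0.16 and limma 3.58.1 under R 4.3.3, with 1 mean per group over all 27 libraries, filterByExpr, trimmed mean of M values scaling and the robust quasi-likelihood test. A gene was called where p after Benjamini-Hochberg adjustment fell below 0.05 and the fold change exceeded 2. Log2 CPM used a prior count of 2, and a fold against libraries without counts used a floor of 3 counts. Values after ± are standard errors derived from the quasi-likelihood test, except where SD is stated.

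The members and lists were chosen with earlier results of these data known. The genes named were the members of the lists, the 12 called protein-coding genes of highest and of lowest fold change (mean log2 CPM of at least 3, groups not overlapping), the 6 of smallest p in each direction, and, by the fold rule, 4 long noncoding genes in each direction. The procedure was tested on simulated data. Alternatives covered scaling, filters, thresholds, DESeq2 1.42.0, a replicate block, depth class and the omission of each library. Figures were drawn with matplotlib 3.10.9.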

Additional observations from a re-analysis of the deposited data

Results flagged for a closer look

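Of 386 sets of 4 libraries examined (genes named and list sums, within chronic 24 h or chronic 14 d), 21 (5.44%) had 1 library apart from the other 3 by Dixon's criterion, and chance gives about 1 in 20. The library apart was chronic 14 d replicate 2 in 11 of the 21 sets. There Thrsp stood at 166 CPM against 30.5 to 49.1 CPM in the other 3 libraries, Cyp3a25 at 196 CPM against 32.3 to 52.9 CPM, Ugt2b1 at 129 CPM against 39.7 to 54.8 CPM and Cyp26a1 at 16.6 CPM against 0.881 to 2.41 CPM. The summed fatty acid synthesis and adipose-type genes stood at 3219 CPM against 1392 to 1661 CPM. In the same library BC024386 had 103 CPM against 13.7 to 20.3 CPM, Dhrs3 114 CPM against 79.1 to 84 CPM, Plaur 19.2 CPM against 11 to 12.4 CPM, Tagln 137 CPM against 82.5 to 90.9 CPM and Tnfrsf12a 10.9 CPM against 5.58 to 5.81 CPM. Pdgfrb was lowest there, at 823 CPM against 1182 to 1213 CPM. This was also the library with the highest hepatocyte sum of its group.

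In chronic 14 d replicate 4, Ldb2 was high at 59.2 CPM against 39.3 to 41.1 CPM and Mmp2 was low at 401 CPM against 607 to 627 CPM. In replicate 3, Fzd1 was high at 331 CPM against 272 to 279.5 CPM.

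In chronic 24 h replicate 1, Col15a1 was low at 99.7 CPM against 151 to 157 CPM, and the summed IGF1 and IGF-binding proteins were low at 4713 CPM against 7099 to 7384 CPM. Colec11 was high there at 619 CPM against 349 to 380.1 CPM, and Hhip at 22.8 CPM against 6.23 to 7.69 CPM. In replicate 2 the summed monocyte-derived and lipid-associated macrophage genes were high at 3951 CPM against 2220 to 2461 CPM. In replicate 4 the summed immediate early genes were low at 47951 CPM against 50287 to 50673 CPM, and Cyp26a1 had 0.32 CPM against 0 in the other 3 libraries.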

How the results depend on the processing

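The counts of 1248 genes higher and 1147 lower moved most with the threshold. Without a fold minimum they were 1895 and 2428, and tested against a 2-fold minimum 223 and 254. Within lower-depth libraries, with fewer samples and 16341 genes tested, they were 671 and 778, of which 542 and 613 were among the genes called in all 8 libraries. Depth class as a term gave 936 and 893, size factors of DESeq2 gave 1377 and 991, and DESeq2's own test gave 1580 and 1075. Leaving out 1 library at a time gave 932 to 1415 genes higher and 878 to 1287 lower. The difference of Lrat, which was not called, changed sign without chronic 24 h replicate 2 or 3 or chronic 14 d replicate 3 or 4, and lay between -0.16 and 0.20 on the log2 scale when 1 library was left out.

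Same-numbered libraries of the groups deviated together at r = 0.05, 0.11, 0.06 and 0.01 over the 2000 genes compared, so the replicate numbers were not taken as pairs. A fit with the replicate number as a block called 1221 genes higher and 1126 lower, of which 1157 and 1081 were shared with the fit without it, and among genes named it ended the call of Meox1 alone (adjusted p = 0.057). Not every library correlated best with its own number.

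Of the 147 genes examined, 108 kept their side of the threshold when tested against a 2-fold minimum, 130 of 144 within lower-depth libraries and 141 or more under each of the other alternatives. The cause of these differences was not tested. At 6314801 to 13045948 counts per library, changes of genes at a few counts in both groups could be missed. Of the genes called higher, 116 had 3 counts or fewer in every chronic 24 h library. Among those called lower, 60 had 3 or fewer in every chronic 14 d library.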
